A study of Mus musculus with 12 samples.

Results

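The Fc gamma receptor genes of the mouse, the chain that carries their signal and the kinases and phospholipase that act on it were followed across 3 mouse cell lines. The 9 genes were taken from a list of names: the receptors Fcgr1, Fcgr2b, Fcgr3 and Fcgr4, the chain Fcer1g, the kinases Syk, Btk and Lyn, and the phospholipase Plcg2. They are 9 of the 25128 genes and unnamed targets on the arrays, and all 9 were matched, with 3 probes each and 27 probes in all. Total RNA came from 4 separately grown plates each of BV2 cells, an immortalized mouse microglial line, of N18 cells, a mouse neuroblastoma line, and of plates labelled AtT20, a line derived from a mouse pituitary tumor. All 12 plates were untreated, were grown in the same medium and each had 1 single-color NimbleGen array. By the study's account, BV2 was kept under conditions that favor a resting rather than an activated state. The study used these lines as hosts or models for receptor work and asked which receptor and signaling mRNAs they hold.

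Fc gamma receptors bind the constant part of IgG antibodies and let microglia, macrophages and other leukocytes take up antibody-coated particles. The activating receptors pair with the gamma chain encoded by Fcer1g, whose cytoplasmic ITAM motif is phosphorylated by Src family kinases such as Lyn; Syk then docks on it and, with Btk, activates the phospholipase encoded by Plcg2. Fcgr2b is the inhibitory member of the family, with an ITIM motif that recruits phosphatases.

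Of the 4 receptor genes, 3 share a stretch of letters just before the start of transcription, and these promoters are shown since Spi1, the myeloid transcription factor PU.1, was among the microglial genes high in BV2 (level 4.06 ± 0.29, SD, n = 4). RefSeq promoters (GRCm38.p6) were searched over the 250 bases before each start, on both strands, for GAGGAAG and AGGAAGT, forms of the PU.1 site that overlap in 6 letters. The first was present in 10.6%, the second in 7.69% and either in 15.4% of all 32851 windows. Either was present in 4 of the 10 windows of these genes and in 3 of the 8 genes that had a window (Fcgr1, Fcgr3 and Fcgr4, while Lyn had none). The 2 windows of Fcgr3 overlap and hold the same match. The share over all genes, rather than windows, was not computed. The last 100 bases before the start are printed 5′ to 3′ on the strand of the gene, with capitals for the matches, all of which read on the opposite strand. The coordinates are chr3:96293970-96294069 on the minus strand for Fcgr1, chr1:171059395-171059494 on the minus strand for 1 of the 2 starts of Fcgr3, and chr1:171018826-171018925 on the plus strand for Fcgr4. Fcer1g, at chr1:171234350-171234449 on the minus strand, is added as a gene of the same chromosome without a match.
Fcgr1: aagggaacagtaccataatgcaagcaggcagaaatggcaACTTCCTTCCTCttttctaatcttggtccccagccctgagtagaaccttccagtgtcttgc
Fcgr3: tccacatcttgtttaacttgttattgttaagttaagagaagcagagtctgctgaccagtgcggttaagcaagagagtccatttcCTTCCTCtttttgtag
Fcgr4: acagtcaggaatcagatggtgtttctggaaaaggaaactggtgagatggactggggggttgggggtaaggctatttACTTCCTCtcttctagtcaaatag
Fcer1g: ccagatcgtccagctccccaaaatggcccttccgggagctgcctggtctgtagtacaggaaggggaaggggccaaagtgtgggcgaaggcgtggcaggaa
The match nearest to the start began 56 bases before it in Fcgr1, 16 bases before it in Fcgr3 and 23 bases before it in Fcgr4. These are matches of letters, and binding was not measured.

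Levels are on the log2 scale and count from 10 seminal proteins, genes not expected in these cells: the probes of a gene were averaged for each plate, and the average of the seminal proteins there was subtracted. A line was called to express a gene when the average of its 4 plates lay above 2 SD of the seminal proteins (the mean of the SDs of the plates). For BV2 this threshold was 0.56 ± 0.15 (SD, n = 4), for N18 0.74 ± 0.10 and for the plates labelled AtT20 0.37 ± 0.11. Lines were compared with limma after quantile normalization of the 12 arrays, with p-values adjusted over all 25128 genes and targets, and a difference was called at an adjusted p under 0.05. Probes differ in how strongly they bind, so levels of different genes were not compared. Arrays are made 4 to a slide and which plates shared a slide is not known here, so slide and line cannot be told apart. In RNA from whole plates, fewer expressing cells and less RNA per cell cannot be told apart either.

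The labels were compared with marker genes of the cell types. In BV2 7 of 10 microglial and macrophage genes were above the threshold, with levels of 0.30 to 4.70, but P2ry12 (0.32), Cx3cr1 (0.40) and Aif1 (0.30) were not. In N18 2 of these 10 passed (-0.41 to 1.52), against 9 of 10 neuroblastoma genes. Of the latter 5 passed in BV2 (-0.60 to 1.82) and 5 for the plates labelled AtT20 (-0.04 to 4.46, with Nefl highest). On the plates labelled AtT20 1 of the 10 microglial genes passed (-0.17 to 0.82), and of 7 corticotroph genes 1 passed, with Pomc (0.29), Tbx19 (0.02) and Pcsk1 (0.14) below the threshold, so these plates are named by their label throughout. The arrays of those plates also had a higher median (10.85 to 11.50 on the deposited log2 scale, against 9.90 to 10.54 on the other arrays) and a narrower interquartile range (0.38 to 0.78 against 1.28 to 2.21).

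In BV2 8 of the 9 genes were above the threshold, and Lyn was not, where 53.3% of all genes and targets passed. In N18 only Syk passed, against 55.4% of all genes and targets, and on the plates labelled AtT20 only Syk and Fcgr3 did, against 35.0%. All 9 genes were called higher in BV2 than in N18, where 21.9% of all genes and targets were called higher and 19.0% lower. For all 9, every BV2 plate lay above every N18 plate in level, which held for 12.7% of all genes and targets. Their median difference was 2.81 on the log2 scale, beside 0.06 over all genes and targets. Relative to the seminal proteins the median was 2.99, beside -0.18.

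**Figure D1:**
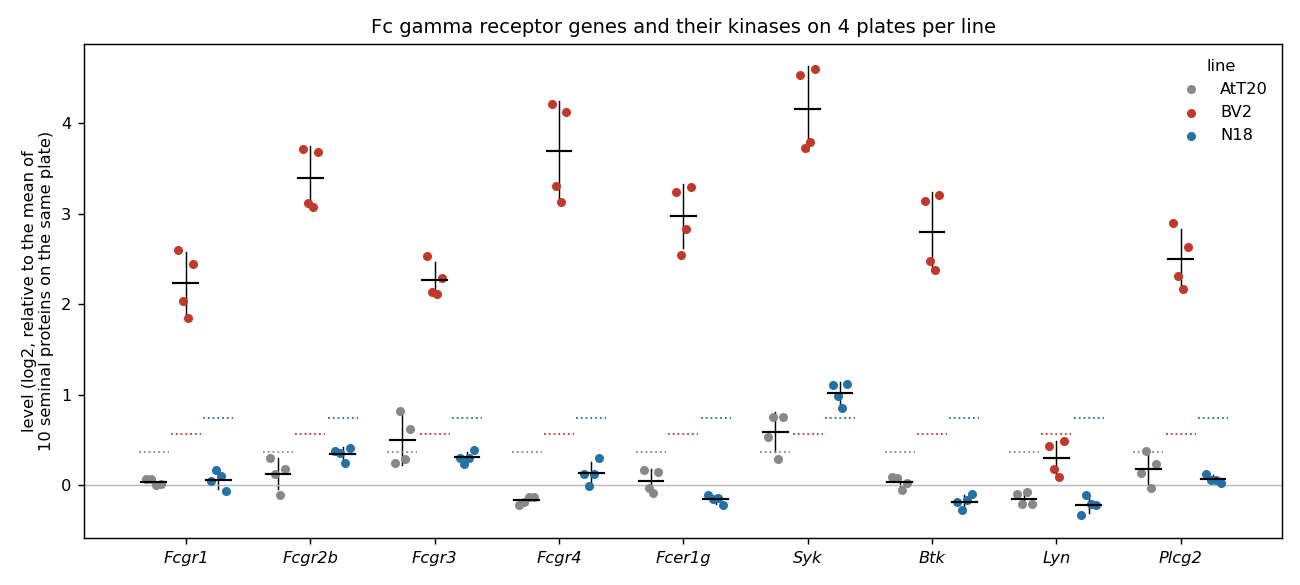
Level of each gene (log2, relative to the mean of 10 seminal proteins on the plate) on the 4 plates of each line. Points are plates, bars the mean and SD, and dotted lines the threshold of that line. The BV2 points lie above those of the other lines for every gene. Only for Lyn are they under the BV2 threshold of 0.56, with its 4 BV2 plates between 0.09 and 0.48.

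Among the receptors, Fcgr1 encodes the high-affinity receptor for IgG. Its levels were 2.59, 2.04, 1.85 and 2.45 on BV2 plates 1 to 4, and lay between -0.07 and 0.16 on the N18 plates and between 0.00 and 0.07 on the plates labelled AtT20. The difference between BV2 and N18 was 2.04 ± 0.10 (SE, adjusted p = 5.43e-11). The BV2 plates lay far above both other groups, which overlapped each other.

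Fcgr2b, the inhibitory receptor, had levels of 3.72, 3.12, 3.07 and 3.69 in BV2 and 0.38, 0.35, 0.25 and 0.40 in N18. On the plates labelled AtT20 its levels were 0.30, 0.13, -0.11 and 0.18. The inhibitory gene was thus above the threshold in BV2 together with the activating ones, and below it in both other lines. Its difference between BV2 and N18 was 3.02 ± 0.15 (SE, adjusted p = 6.83e-11).

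Fcgr3, a lower-affinity activating receptor, had levels of 2.54, 2.13, 2.12 and 2.29 in BV2 and 0.30, 0.23, 0.30 and 0.39 in N18, with a difference of 1.95 ± 0.13 (SE, adjusted p = 2.42e-09). On the plates labelled AtT20 its levels were 0.25, 0.82, 0.29 and 0.62, so that 3 of 4 plates were above their own plate's threshold. Fcgr3 was the only receptor of the 4 called expressed there, and this call rests on 1 of its probes, as described with the probes.

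Fcgr4, an activating receptor that is known for binding IgG2a and IgG2b in the mouse, had BV2 levels of 4.21, 3.31, 3.13 and 4.12. It lay between -0.01 and 0.30 in N18 and between -0.22 and -0.13 on the plates labelled AtT20. With a difference of 3.49 ± 0.12 between BV2 and N18 (SE, adjusted p = 1.20e-12), Fcgr4 had the widest of the receptors' differences, and also the widest spread among the 4 BV2 plates (SD 0.55).

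Fcer1g, the gamma chain, had levels of 3.25, 2.54, 2.83 and 3.29 in BV2, between -0.22 and -0.11 in N18, and between -0.09 and 0.16 on the plates labelled AtT20. It differed between BV2 and N18 by 2.97 ± 0.13 (SE, adjusted p = 1.80e-11). Chain and activating receptors were thus both above the threshold in BV2, and neither Fcer1g nor Fcgr1 or Fcgr4 was above it in another line.

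Syk, the kinase that docks on phosphorylated ITAMs, had BV2 levels of 4.53, 3.73, 3.79 and 4.60. In N18 its levels were 1.10, 0.98, 0.86 and 1.12, and on the plates labelled AtT20 0.53, 0.75, 0.29 and 0.76. It was the only one of the 9 genes called in all 3 lines, although 1 of its 3 probes carried the call outside BV2. The difference between BV2 and N18 was 3.48 ± 0.11 (SE, adjusted p = 4.26e-13), and 3.15 relative to the seminal proteins. As the N18 call rests on 1 probe, no fold is given.

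Btk, the Tec family kinase downstream of Syk, had BV2 levels of 3.14, 2.48, 2.38 and 3.21. It stayed between -0.28 and -0.10 in N18 and between -0.06 and 0.09 on the plates labelled AtT20. The difference between BV2 and N18 was 2.81 ± 0.10 (SE, adjusted p = 1.04e-12), and no plate outside BV2 reached its threshold.

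Lyn, the Src family kinase that phosphorylates ITAMs and ITIMs, was below the threshold in each line. Its levels were 0.43, 0.18, 0.09 and 0.48 in BV2, -0.34, -0.11, -0.22 and -0.22 in N18, and -0.10, -0.21, -0.08 and -0.21 on the plates labelled AtT20. The 4 BV2 plates did lie above the other 8, and the difference to N18 of 0.47 ± 0.09 was called (SE, adjusted p = 0.000644). With both lines under the threshold no fold is given.

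Plcg2, the phospholipase C activated in this pathway, had BV2 levels of 2.90, 2.31, 2.17 and 2.63. It lay between 0.02 and 0.12 in N18 and between -0.03 and 0.38 on the plates labelled AtT20. Its difference between BV2 and N18 was 2.29 ± 0.13 (SE, adjusted p = 3.61e-10).

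For 7 of the genes N18 was below its threshold while BV2 was above, so a fold has only a lower bound, taken from the N18 threshold and given as the smallest over 3 scalings (quantile, relative to the seminal proteins, none). BV2 was at least 7.7-fold higher for Fcgr4, at least 6.3-fold for Fcgr2b and at least 4.1-fold for Btk. The bound was 3.3-fold for Plcg2 and 2.8-fold for Fcgr1. None is given for Fcer1g, whose difference was 2.19 at its lowest over the alternatives, nor for Fcgr3. The difference of Fcgr3 was 0.87 without 1 of its probes, as described with the probes. The bounds cover the 3 scalings and not the choice of probes. Within BV2, plates 1 and 4 had the higher and plates 2 and 3 the lower levels for each of the 9 genes. After quantile normalization this split still held for Fcgr4, Syk, Btk and Lyn. It no longer held for Fcgr1, Fcgr2b, Fcgr3, Fcer1g and Plcg2. How often it held over all genes and targets was not computed.

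Against the plates labelled AtT20, all 9 genes were again called higher in BV2, where 26.6% of all genes and targets were called higher and 47.0% lower. Every BV2 plate lay above every plate labelled AtT20 in level for all 9, but so it did for 45.2% of all genes and targets. The differences were 3.56 for Fcgr4, 2.59 for Syk, 2.52 for Fcgr2b, 2.36 for Fcer1g, 2.10 for Btk, 1.60 for Plcg2 and 1.58 for Fcgr1, with SEs of 0.099 to 0.15 and adjusted p of 1.10e-08 or less. Fcgr3 (0.76, adjusted p = 5.09e-05) and Lyn (0.28, adjusted p = 0.0125) had the smallest ones, and neither direction held throughout: Lyn was -0.91 without normalization, and Fcgr3 was -0.73 without 1 of its probes. Fcgr3 was also not called without normalization (0.41, adjusted p = 0.0542) or with the median of the probes (0.30, adjusted p = 0.0712). BV2 was at least 3.9-fold higher for Fcgr4, 3.1-fold for Fcgr2b, 2.3-fold for Fcer1g, 2.1-fold for Btk and 1.4-fold for Fcgr1. These bounds, too, do not cover the choice of probes. None is given for Plcg2, as 1 of its probes was above the threshold on the plates labelled AtT20, as described with the probes.

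The size of these differences depended on the scaling. Their median was 2.10 after quantile normalization, beside -0.23 over all genes and targets, and 2.77 relative to the seminal proteins, beside 0.28. Of all genes and targets called between BV2 and the plates labelled AtT20, 36.2% were higher in BV2 after quantile normalization and 74.2% relative to the seminal proteins. After quantile normalization 6 of the 10 seminal proteins were themselves called lower in BV2 and 0 higher (median difference -0.34). Between BV2 and N18, 0 of the 10 were called. Against the plates labelled AtT20, 6 of 6 genes used by all cells, Actb and Gapdh among them, were also called higher in BV2, with a median difference of 1.48; their part in the result for the Fc receptor genes was not tested. Between BV2 and N18, 1 of the 6 was higher and 1 lower (median difference -0.03), and of all genes and targets called there 53.5% were higher in BV2 after quantile normalization and 25.3% relative to the seminal proteins.

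**Figure D2:**
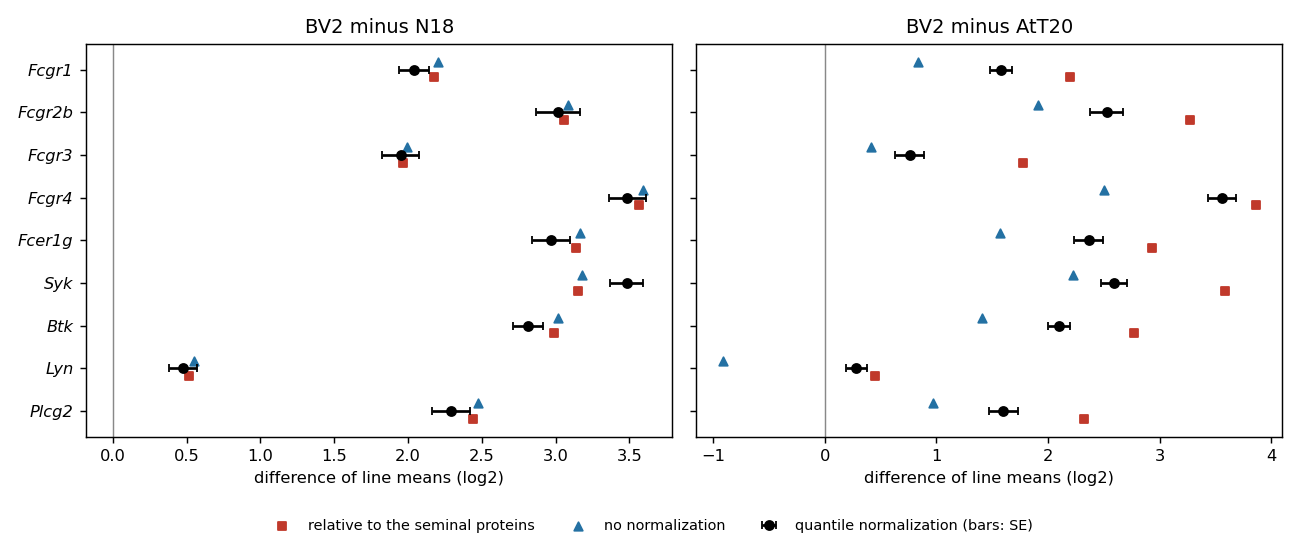
Difference of the line means (log2) for BV2 minus N18, left, and BV2 minus the plates labelled AtT20, right. Circles are quantile normalized values with their SE, squares are levels relative to the seminal proteins and triangles are values without normalization. On the left the 3 scalings lie close together, and on the right they spread, with Lyn at -0.91 without normalization.

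Between N18 and the plates labelled AtT20, 7 of the 9 genes were called lower in N18 after quantile normalization and 0 higher, where 48.6% of all genes and targets were called lower and 27.8% higher. Fcgr4 (0.07, adjusted p = 0.605) and Lyn (-0.19, adjusted p = 0.0743) were not called. The median difference was -0.60, beside -0.25 over all genes and targets. On this scale 8 of the 10 seminal proteins were also called lower in N18 and 0 higher (median difference -0.42). These calls therefore do not separate a difference in expression from the scaling. Relative to the seminal proteins 0 of the 9 were called in limma, the median difference was -0.07 beside 0.54, and the direction turned for Syk (-0.89 to 0.43), Fcgr1 (-0.46 to 0.02) and Fcgr2b (-0.49 to 0.22). Of all calls, 36.4% were higher in N18 by the first scaling and 78.8% by the second. Apart from Syk, no gene of the 9 was above the threshold in both lines, and 7 were above it in neither.

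The 3 probes of a gene did not always behave alike, and probes of 1 gene are not replicates. Of the 27 probes, 25 were called higher in BV2 than in N18, beside 13.2% of all 72000 probes. Above the threshold were 22 of the 27 in BV2, beside 47.8% of all probes, 3 in N18, beside 50.7%, and 4 for the plates labelled AtT20, beside 26.7%. Probes are named by the number that ends their identifier, whose meaning is not given in the sources used here. All 3 probes of Fcgr4 had BV2 levels of 3.16 to 4.17 and none above the threshold in the other lines. Those of Fcgr2b had 3.15 to 3.64 in BV2. In N18, probe 336 of Fcgr2b (0.83) and probe 336 of Fcgr3 (0.77) were just above the threshold of 0.74.

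For Fcer1g, probes 212 and 487 had BV2 levels of 2.80 ± 0.44 and 3.93 ± 0.36 (SD, n = 4), while probe 21 had 0.44 ± 0.18, under the threshold. For Btk, probes 1105 and 1746 had 3.63 ± 0.32 and 2.92 ± 0.60, while probe 2384 had -0.07 ± 0.56 and was not called between BV2 and N18 (0.35, adjusted p = 0.176). In both genes, then, the level in BV2 rests on 2 of the 3 probes. Probe 3250 of Plcg2 was above the threshold on the plates labelled AtT20 (0.56 ± 0.47, SD, n = 4). Between BV2 and those plates this probe was not called (0.37, adjusted p = 0.218). The 3 probes of Lyn carry numbers within 5 of each other, 3188, 3191 and 3193, and had BV2 levels of -0.04, 0.39 and 0.48. Probe 3188 of Lyn was not called between BV2 and N18 (0.20, adjusted p = 0.508).

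Syk probe 4806 was above the threshold in every line, with 5.07 ± 0.38 in BV2, 1.32 ± 0.47 on the plates labelled AtT20 and 1.90 ± 0.17 in N18 (SD, n = 4). Probes 3969 and 4574 of Syk had 3.37 and 3.27 in BV2 but 0.19 and 0.22 in N18, and 0.07 and -0.18 on the plates labelled AtT20. The calls of Syk outside BV2 therefore rest on probe 4806, and without it the level of the gene was below the threshold in both, with 0.32 for N18 and 0.01 for the plates labelled AtT20.

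Fcgr3 and Fcgr2b are paralogs of near-identical sequence in part, and each has a probe numbered 336. The levels of these 2 probes differed by a median of 0.13, and by at most 0.32, over the 12 plates, so the signal of Fcgr3 mRNA and of Fcgr2b mRNA in them cannot be told apart here, as the bases of the probes are not given in the sources used. In BV2, Fcgr3 had 3.42 ± 0.19 by probe 336 but 1.14 ± 0.28 by probe 844 and 0.64 ± 0.21 by probe 960 (SD, n = 4). On the plates labelled AtT20, probe 844 of Fcgr3 had 1.09 ± 0.57 and the others 0.15 and -0.13. The difference of Fcgr3 between BV2 and N18 was called by each probe, at 2.74 by probe 336, 0.98 by probe 844 and 0.73 by probe 960. Without probe 336, a choice made after seeing the values, the difference to the plates labelled AtT20 was -0.73 (adjusted p = 0.000178).

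**Figure D3:**
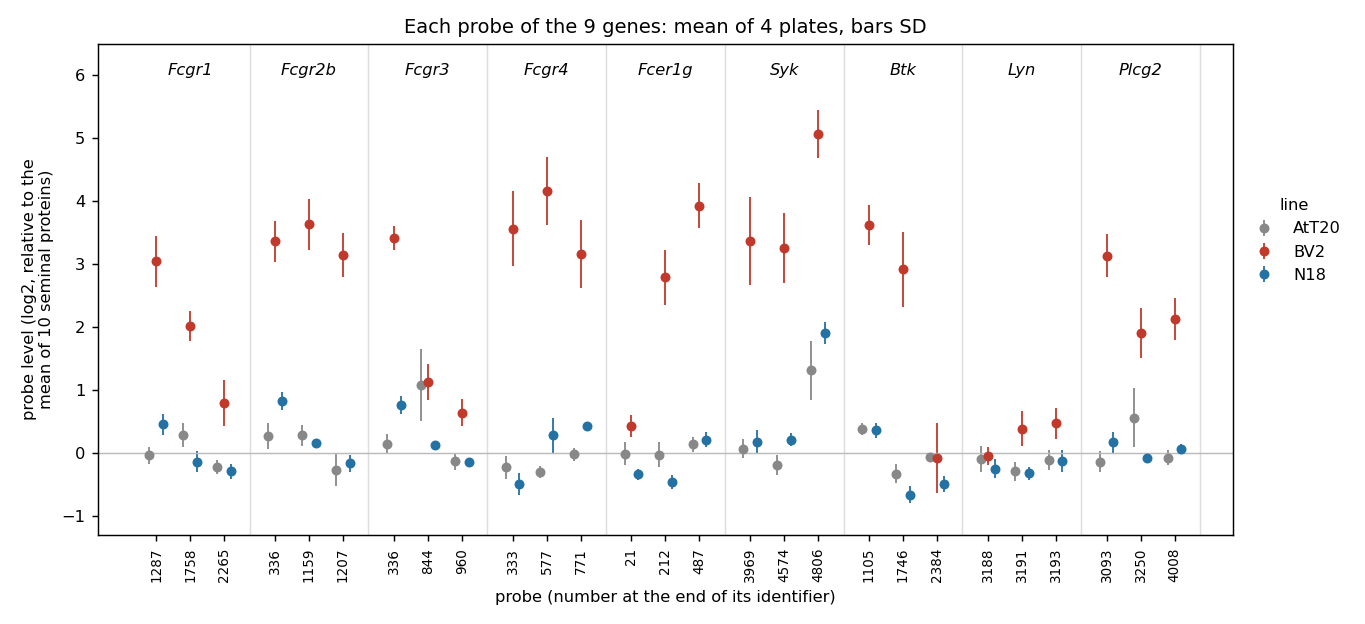
Mean level of each of the 27 probes (log2, relative to the mean of 10 seminal proteins), with the SD of 4 plates, by line. Probe 4806 of Syk is above the threshold in all 3 lines (5.07, 1.90 and 1.32), probe 844 of Fcgr3 is as high on the plates labelled AtT20 as in BV2 (1.09 and 1.14), and probe 21 of Fcer1g and probe 2384 of Btk stay low in BV2 (0.44 and -0.07).

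The other genes of the pathway, 63 with probes out of 65 listed by role, were called in both directions. Between BV2 and N18, 34 were called higher in BV2, 12 lower and 17 were not called, with a median difference of 0.29. Of the calls 73.9% were higher, beside 53.5% over all genes and targets. Relative to the seminal proteins 25 were higher and 16 lower (61.0% of calls higher, beside 25.3%), with a median of 0.09. Above the threshold were 48 of the 63 in BV2, 33 in N18 and 25 for the plates labelled AtT20. Over all genes and targets the shares were 53.3%, 55.4% and 35.0%. Between BV2 and the plates labelled AtT20, 32 were higher and 24 lower after quantile normalization, and 42 and 7 relative to the seminal proteins. The shares of calls that were higher were 57.1% and 85.7%, beside 36.2% and 74.2% over all genes and targets. Between N18 and those plates the balance turned with the scaling, from 17 higher and 34 lower to 34 higher and 8 lower. These shares, 33.3% and 81.0% of calls higher, were near those over all genes and targets, 36.4% and 78.8%.

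Among 12 other Fc receptors, 5 were called higher in BV2 than in N18 and 1 lower, and relative to the seminal proteins 4 were higher and 3 lower. Lower by both scalings was Fcgrt, the neonatal receptor that recycles IgG, with levels of 1.31 in BV2 and 2.80 in N18 (difference -0.79, adjusted p = 0.000123). Fcer2a, the low-affinity IgE receptor, was slightly higher in BV2 (0.49, adjusted p = 0.00155). Of 3 further adaptors (Tyrobp, Cd247 and Hcst, which has no ITAM) 1 was called, and 1 was higher and 1 lower relative to the seminal proteins. The 1 called was Tyrobp, an ITAM adaptor that serves Trem2 and other receptors of microglia. Tyrobp had levels of 4.12 ± 0.52 in BV2, 0.03 ± 0.11 on the plates labelled AtT20 and 1.12 ± 0.14 in N18 (SD, n = 4), with a difference of 3.36 between BV2 and N18. Trem2 itself had levels of 1.23 in BV2 and 1.52 in N18 and was not called (difference 0.18, adjusted p = 0.159).

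Of 11 other kinases 4 were called higher in BV2 and 4 lower after quantile normalization, and 1 higher and 5 lower relative to the seminal proteins. Of the Src family kinases, Src (levels 1.33 in BV2 against 3.60 in N18, difference -1.55) and Fyn (0.14 against 1.41, difference -0.70) were lower in BV2. Fgr was above the threshold in both (1.05 and 1.12) and was not called (0.28, adjusted p = 0.0918). Where Lyn was below the threshold in BV2, Fgr and Src were thus above it. Tec, the kinase related to Btk, differed by 0.50 (adjusted p = 0.00479), and relative to the seminal proteins by 0.34 (adjusted p = 0.053).

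Of 10 adaptors 5 were called higher in BV2 and 2 lower, by either scaling. Lcp2 (SLP-76) differed by 1.31 and Blnk, its counterpart in B cells, by 2.13. Lat2 was below the threshold in both lines, but only just in BV2 (0.54 against 0.56), where 3 of 4 plates were above their own threshold. Of 14 effectors 10 were higher and 4 lower, and 7 and 4 relative to the seminal proteins. Vav1, an exchange factor for Rac, was higher in BV2 at a level of 4.11 against 0.19 in N18 (difference 3.92, at least 10.3-fold), and the PI3-kinase subunit Pik3cd differed by 1.14. The phospholipases of the pathway ran in opposite directions between BV2 and N18. Of these lines, Plcg2 was above the threshold in BV2 only. Plcg1 was above it in N18 only (levels 0.36 in BV2, 3.04 in N18, difference -1.87, adjusted p = 1.60e-08). On the plates labelled AtT20 both were near the threshold of 0.37. There Plcg1 had 0.36, with 3 of 4 plates above their own threshold, and Plcg2 was called without its brightest probe (0.35).

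Of 13 genes listed as inhibitors 9 were higher in BV2 and 1 lower (7 and 1 relative to the seminal proteins). All 13 were above the threshold in BV2. The label is loose, since Ptprc (difference 3.90, also 1 of the microglial genes) and Ptpn11 (not called) are not inhibitors only. Ptpn6, the phosphatase SHP-1, had levels of 4.40 against 1.37 (difference 3.47), and Inpp5d, the phosphatase SHIP-1 that acts with Fcgr2b, of 1.27 against -0.40 (difference 1.48, at least 1.4-fold). Csk, which restrains Src family kinases, was above the threshold in all 3 lines and did not pass the test between BV2 and N18 (0.12, adjusted p = 0.515).

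**Figure D4:**
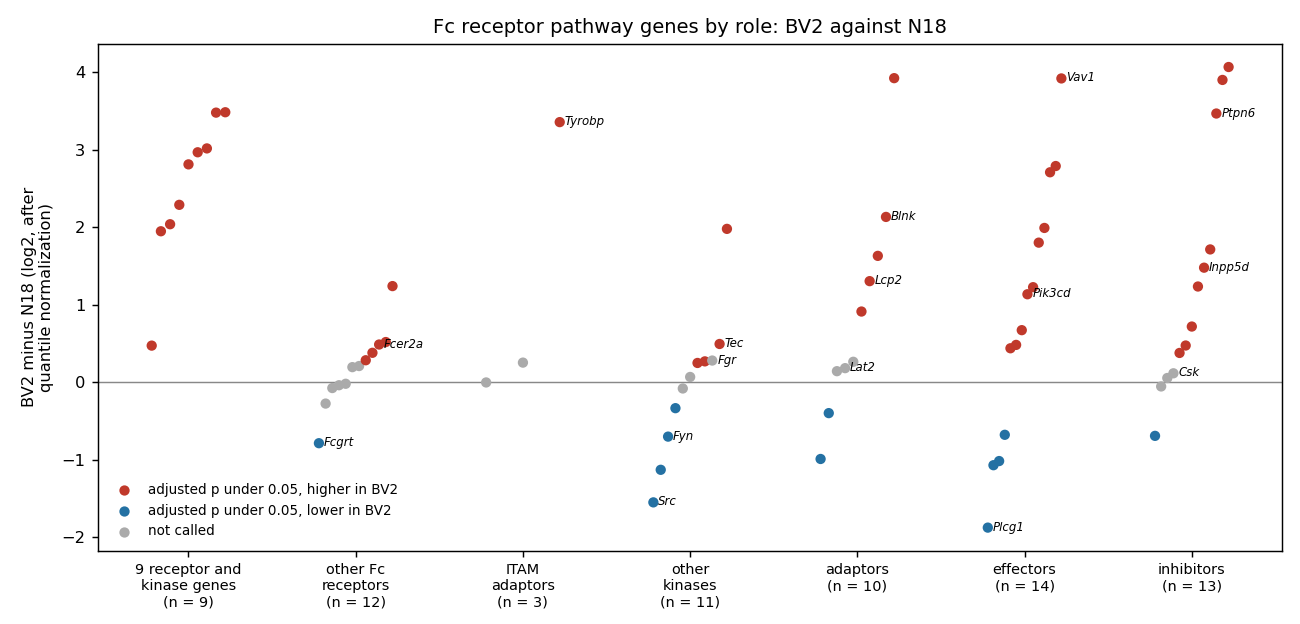
Difference between BV2 and N18 (log2, quantile normalized) for the 9 genes and for 63 other pathway genes by listed role. The groups are loose: that of inhibitors holds Ptprc and Ptpn11, and that of ITAM adaptors holds Hcst, which has no ITAM. Each point is a gene, colored by its call at an adjusted p under 0.05. The 9 genes all lie above 0, whereas other kinases lie on both sides of 0 on this scale, with Tec at 0.50 and Src at -1.55.

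Several of the 9 genes also belong to B cells and mast cells, so markers of both were read beside them. In BV2 0 of 5 B cell genes were above the threshold, with levels from -0.20 to 0.48, and 1 (N18) and 3 (plates labelled AtT20) passed in the other lines, where Btk and Fcer1g were below the threshold. Of 5 mast cell genes 2 passed in BV2, Mcpt4 and Tpsb2, while Kit (0.00) and Cpa3 (-0.32) were at or below 0. Ms4a2 was below the threshold in BV2 (0.11) and in N18 (-0.16). It was called higher in BV2 by both scalings (0.29, adjusted p = 0.0445, and 0.27 relative to the seminal proteins, adjusted p = 0.0105). Mcpt4 had levels of 2.08 in BV2 and 2.06 in N18, and was called higher in BV2 after quantile normalization (0.59, adjusted p = 0.021) but not relative to the seminal proteins (0.02, adjusted p = 0.94).

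Over the 12 arrays, the genes nearest to Fcer1g in their quantile normalized values, each centred on its own mean, were Fcgr2b (root mean square difference 0.127), Glrp1 (0.184), Cxcl14 (0.206), Btk (0.215) and Was (0.215), of 17276 genes. Among the remaining genes of the 9, Syk ranked 16, Plcg2 62, Fcgr1 102, Fcgr4 185, Fcgr3 376 and Lyn 1923 in their likeness to Fcer1g. The genes nearest to Syk were Skap2 (0.174), Ncf1 (0.209), Lpxn (0.222), Ifi211 (0.228) and Itgal (0.238). These are descriptions over 3 lines, in which any gene that is high only in BV2 by a like amount ranks near.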

How the data were processed

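Total RNA of 12 plates (4 per line, grouped by the cell line in the labels) was hybridised to 1-color NimbleGen arrays. The authors deposited log2 values of the Cy3 intensities of 72000 probes, not averaged over the probes of a target. The values show no sign of a background subtraction or of scaling between arrays. Probes were averaged on the linear scale, and targets were named through their transcript identifiers (69.4% matched), which gave 25128 genes and unnamed targets. Detection followed the threshold of the study's methods. Differences between lines were tested after quantile normalization with lmFit and eBayes (trend, all 12 arrays) of limma 3.58.1, run under R 4.3.3, with Benjamini-Hochberg adjustment, and the step was tested on simulated data. The members and gene lists were chosen with earlier results of these data known. Named pathway genes were chosen by role, and likeness was taken for the 5 nearest genes of Fcer1g and Syk. Card9 and Cblb are not analysed here. The result for 1 pathway gene is not reported here. Alternatives were other scalings, probe averages, controls, thresholds, filters, a normexp correction (offset 50), a replicate block and leaving out each plate. Plots used matplotlib 3.10.9 and tables pandas 2.3.3 in Python 3.11.15. Signal over background and the number of arrays limit the precision.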

Additional observations from a re-analysis of the deposited data

How the results depend on the processing

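The 9 calls between BV2 and N18 held under each alternative that was run but 2, which left 8: Lyn was lost with a difference of at least 1 (0.47), and was not tested where only genes above the threshold in at least 1 line were kept. The 9 calls between BV2 and AtT20 became 8 without normalization (7 higher, 1 lower), with the median of the probes, with only genes above the threshold and without the brightest probe (7 higher, 1 lower), and 7 with a difference of at least 1. The 8 calls of expression in BV2 held under all 13 settings. Expression calls outside BV2 were less stable. On the plates labelled AtT20 the 2 calls became 0 with the median of the probes, with olfactory receptor genes as controls and with at least 2 probes required, and 1 with 3 SD or with all 4 plates required. The 1 call in N18 became 0 with the median of the probes, olfactory receptor controls, 3 SD, at least 2 probes required, and without the brightest probe (an alternative added after seeing the data). Between N18 and the plates labelled AtT20, the 7 calls became 0 relative to the seminal proteins, 4 with the median of the probes and 1 with a difference of at least 1. Requiring a difference of at least 1 left 25 pathway genes between BV2 and N18 (46 without it), 31 between BV2 and AtT20 (56) and 26 between N18 and AtT20 (51). Directions turned for Lyn between BV2 and AtT20 without normalization (-0.91) and for Fcgr3 without the brightest probe or without probe 336, which is the same probe (-0.73). Between N18 and AtT20 they turned for Fcgr4 without normalization (-1.09) or the brightest probe (-0.12), and relative to the seminal proteins for Fcgr1 (0.023), Fcgr2b (0.22) and Syk (0.43). Causes were not tested, other than the probe left out. Leaving out each plate in turn gave 9 genes for both comparisons with BV2, and 7 to 8 between N18 and AtT20 (8 without AtT20 replicate 4, when Lyn was called).

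Deviations of plates with the same replicate number correlated from -0.09 to 0.32 between BV2 and N18, the highest being replicate 2. They correlated from -0.08 to 0.11 between BV2 and AtT20 and from -0.11 to 0.14 between N18 and AtT20. Whether plates of the same number shared a slide or a day is not known, and these values cannot decide it. With a replicate block the counts were 9, 9 and 7 of the 9 genes in these comparisons, 43, 56 and 50 of the pathway genes, and 25 of the 27 probes between BV2 and N18.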
